A study of Mus musculus with 48 samples.

Results

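The genes examined were 31 of the 39637 in the table. They comprised 26 genes named as lectin receptors of natural killer (NK) cells, the NK receptor gene Ncr1 (NKp46), and 4 genes for ligands of the receptor NKG2D. They were chosen by symbol alone, as those beginning with Klra, Klrb, Klrc, Klrd, Klre, Klrg, Klri or Klrk, with Raet1 or H60, together with Ncr1. The 4 symbols marked -ps, which are pseudogenes, were left out, and Ulbp1, H60a and Raet1a to Raet1c are not analysed here. By role the 26 receptors were 11 Ly49 receptors (Klra genes), 5 NKR-P1 receptors (Klrb1 genes), 3 NKG2 receptors (Klrc1 to Klrc3), CD94 (Klrd1), NKG2D (Klrk1), 3 genes of the Klre1 and Klri group, and Klrg1 with Klrg2.

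RNA was sequenced from 48 whole tumours grown under the skin of female BALB/c mice that were 8 to 9 weeks old. Tumours of AB1, a mesothelioma line, were taken out on day 8, and those of Renca, which the labels call kidney cancer, on day 10. The labels place removal before treatment with anti-CTLA4 plus anti-PDL-1, give that same treatment for all mice, and class each mouse by its response to it, which made 4 groups of 12: AB1 responders, AB1 non-responders, Renca responders and Renca non-responders. A whole tumour holds tumour cells of 1 transplanted line together with host cells, and in such bulk RNA fewer cells of a type and less RNA per cell cannot be told apart.

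Depth was 16.4 to 27.8 M (mega) counted reads per library. Each tumour was sequenced on its own pair of flow cells, with responders and non-responders in equal numbers on each. Levels are given in CPM, counts divided by the library total in M after TMM scaling. Renal tubule markers (Pax2, Pax8, Cdh16 and Lhx1) summed to 188 to 430 CPM in Renca and to 0.0431 to 0.436 CPM in AB1. The mesothelial markers analysed (2 of 3) summed to only 0.218 to 7.79 CPM in AB1, so its labelled origin was not visible in them. Skin keratin and desmosome markers summed to 732 CPM in AB1 non-responder 3 and to 354 CPM in AB1 non-responder 7, against at most 80.0 CPM in the other 46 libraries. The deposited counts do not tell strand, and nothing in the labels shows that samples of a group shared an animal.

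NK cells are lymphocytes that kill without an antigen receptor, on the balance of activating and inhibitory receptors. NKG2D activates NK cells and co-stimulates CD8 T cells when it meets RAE-1 or H60 proteins on stressed or transformed cells, and signals through the adaptors DAP10 (Hcst) and DAP12 (Tyrobp). CD94 pairs with NKG2A (Klrc1, inhibitory) or NKG2C (Klrc2, activating) to read the class I molecule Qa-1, Ly49 receptors read classical class I molecules, NKR-P1 receptors read Clec2 proteins, and KLRG1 reads cadherins. Several of these receptors, among them NKG2D, CD94, NKG2A and KLRG1, are also carried by activated CD8 T cells, whereas Ncr1 is largely kept to NK cells and related innate lymphocytes.

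In the mouse genome (GRCm38, GENCODE M21) 24 of the receptor genes lay in 1 cluster of 2.64 Mb at chr6:128609227-131247362, the NK gene complex. Klrg1 (chr6:122270596-122282882) and Klrg2 (chr6:38625693-38637242) lay outside it on the same chromosome, Ncr1 lay at chr7:4337724-4345164, and the 4 ligand genes lay on chromosome 10. The 100 bases before the start of Ncr1, Klrc1 and Klrk1 are shown because these genes stand for the NK-restricted and the shared receptors in the results. They are RefSeq promoter sequences (GRCm38.p6), read 5′ to 3′ on the strand of the gene, and capitals mark the core letters TGTGGT of the Runx motif or their reverse complement ACCACA, Runx3 being a known regulator of NK and CD8 T cells. The windows are chr7:4337615-4337714 on the plus strand for Ncr1, and chr6:129678974-129679073 and chr6:129623865-129623964 on the minus strand for Klrc1 and Klrk1.
Ncr1: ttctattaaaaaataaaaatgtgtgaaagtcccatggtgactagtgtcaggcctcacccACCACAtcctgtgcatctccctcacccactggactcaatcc
Klrc1: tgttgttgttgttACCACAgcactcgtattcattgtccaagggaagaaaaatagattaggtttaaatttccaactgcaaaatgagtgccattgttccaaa
Klrk1: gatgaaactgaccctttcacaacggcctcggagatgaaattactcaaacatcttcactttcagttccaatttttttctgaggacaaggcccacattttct

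The Klrk1 window held no match to either orientation. Over the 250 bases before a start, 9 of the 24 receptor genes with a RefSeq entry (Ncr1 included) held the Runx core on either strand in at least 1 entry, while 14.0% of all 32851 promoter entries did. The T-box core AGGTGT (reverse complement ACACCT), of the kind bound by Eomes and T-bet, was present in 1 of the 24 and in 11.8% of all entries. These are matches of letters only.

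The 2 RAE-1 genes are nearly copies of each other, which bears on every value given for them. Their upstream windows, chr10:22361794-22361893 for Raet1d and chr10:22173397-22173496 for the nearer start of Raet1e, both on the plus strand, are shown without capitals.
Raet1d: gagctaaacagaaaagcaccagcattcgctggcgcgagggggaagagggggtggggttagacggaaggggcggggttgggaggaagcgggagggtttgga
Raet1e: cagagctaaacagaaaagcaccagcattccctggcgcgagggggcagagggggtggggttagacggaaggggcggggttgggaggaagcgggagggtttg

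Shifted by 2 bases, the windows agreed at 96 of 98 positions. In the annotated transcripts, 55.8% of the 50-base stretches of Raet1d and 44.7% of those of Raet1e also occurred in another gene, and the genes shared 363 exonic bases on the same strand. Raet1d and Raet1e are the RAE-1 genes of the C57BL/6J reference, while BALB/c mice carry other RAE-1 alleles, so the counts of both may hold reads of related copies. Shared stretches were also frequent in Klra10 (39.8%), Klrc1 (38.6%), Klrc3 (36.3%), Klra8 (33.1%), Klra9 (31.5%), Klrb1b (27.2%, with the annotated gene Gm44511) and Klra3 (20.7%), and the division of reads among these genes is uncertain. No stretch was shared for Ncr1, Klrk1, Klrd1, Klrg1, Klrg2, Klra2, Klra17 or Klrb1f.

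AB1 tumours of later responders held far more RNA of nearly every receptor than those of non-responders. Of 29 genes tested, 24 receptors were higher and the 4 ligands were lower at an adjusted p under 0.05 in the edgeR quasi-likelihood test with Benjamini-Hochberg adjustment over all genes, and only Klrg2 passed in neither direction. Across all 15388 genes tested in AB1, 29.6% were higher and 30.1% were lower by the same rule, 59.7% in all. The 24 receptors rose by 1.30 to 2.54 on the log2 scale. Klra6 and Klrb1 were too low to be tested here or in any other comparison.

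Ncr1, which marks NK cells, ran from 26.7 to 104 CPM in AB1 responders, with a median of 71.1. In non-responders it ran from 4.06 to 29.7 CPM, with a median of 17.3. Of the 12 responders, 11 lay above every non-responder, and the log2 fold change was 2.10 ± 0.28 (SE, n = 12 per group, edgeR adjusted p = 1.49e-06).

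Klrk1, the NKG2D gene, ran from 56.6 to 201 CPM in responders (median 165) and from 11.6 to 92.3 CPM in non-responders (median 35.7). Again 11 of 12 responders lay above all non-responders, with a log2 fold change of 2.01 ± 0.28 (edgeR adjusted p = 2.91e-06). Klrd1, the CD94 gene, ran from 19.1 to 56.5 CPM in responders (median 41.0) and from 1.88 to 19.2 CPM in non-responders (median 9.25), a log2 fold change of 2.26 ± 0.28. Its lowest responder and its highest non-responder were level, and no other responder fell inside the range of the non-responders.

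Of all 24 receptors, 2 partners of CD94 rose by the most. Klrc1, the inhibitory NKG2A, ran from 10.1 to 55.9 CPM in responders (median 34.6) and from 1.35 to 11.5 CPM in non-responders (median 5.99), a log2 fold change of 2.54 ± 0.30 (edgeR adjusted p = 5.81e-07). Klrc2, the activating NKG2C, rose by 2.50 ± 0.31. Klrc3, a close relative known as NKG2E, rose by 2.36 ± 0.27, and its responders, from 2.93 to 11.2 CPM, did not overlap its non-responders, from 0.414 to 2.84 CPM. Klre1, whose protein pairs with those of Klri1 and Klri2, rose with both of them, by 2.27 ± 0.30, 2.02 ± 0.26 and 2.10 ± 0.26.

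Klrg1, an inhibitory receptor of mature NK cells and effector T cells, ran from 3.34 to 25.4 CPM in AB1 responders and from 0.715 to 4.91 CPM in non-responders, a log2 fold change of 2.41 ± 0.32. Klrg2, which shares its name but lies far from the complex, went the other way: 0.925 to 2.18 CPM in responders and 1.36 to 3.20 CPM in non-responders, a log2 fold change of -0.30 ± 0.16 (edgeR adjusted p = 0.0996). The call on Klrg2 depended on the setting. Without AB1 responder 12, which had its highest responder value, the fold change was -0.40 (adjusted p = 0.0222), and without non-responder 3 it was -0.19 (adjusted p = 0.212). In a fit of all libraries it passed, at -0.36 (edgeR adjusted p = 0.0088). Klrg2 thus did not follow Ncr1 here, and which cells gave its RNA was not tested.

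All 4 NKR-P1 genes tested rose in AB1. Klrb1b, an inhibitory receptor for Clec2d, had no overlap between responders (19.8 to 56.2 CPM) and non-responders (2.50 to 14.97 CPM) and a log2 fold change of 2.19 ± 0.26 (edgeR adjusted p = 5.5e-07). Klrb1c, the activating receptor known as NK1.1 in C57BL/6 mice, rose by 2.04 ± 0.25, also without overlap. Klrb1f and Klrb1a rose by 2.01 ± 0.27 and 1.59 ± 0.24. Klrb1 had at most 3 counts in any of the 48 libraries.

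All 10 Ly49 genes tested rose in AB1, from 1.30 for Klra17 to 2.45 for Klra5. Klra2 (Ly49B) and Klra17 (Ly49Q), which are known from myeloid cells and, for Ly49Q, plasmacytoid dendritic cells, had the smallest rises of the group. Klra2 ran from 39.1 to 119 CPM in responders (median 89.3) and from 10.4 to 59.4 CPM in non-responders (median 28.9), a log2 fold change of 1.61 ± 0.26. Klra17 rose by 1.30 ± 0.33 (edgeR adjusted p = 0.00164), and only 3 of 12 responders lay above all non-responders. The others, Klra1, Klra3, Klra4, Klra5, Klra7, Klra8, Klra9 and Klra10, rose by 1.98 to 2.45. BALB/c mice are known to differ from the C57BL/6J reference in Ly49 gene content, and to lack its Ly49D (Klra4) and Ly49H (Klra8) genes. Klra4 and Klra8 had at most 39 and 65 counts in a library, so whose reads they hold is uncertain. It is also uncertain for Klra10, of whose 50-base stretches 39.8% occurred in another gene.

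Most markers of other leukocytes moved with the receptors in AB1, where 29.6% of all genes tested were higher. The 7 T cell markers analysed all passed as higher, with sums of 87.5 to 222 CPM in responders and 14.0 to 80.6 CPM in non-responders, and Cd8a rose by 2.65 ± 0.30. The 7 pan-leukocyte markers also all passed as higher, with sums of 1744 to 3987 CPM against 731 to 1736 CPM. Macrophage markers, 4 of 5 of them higher, summed to 2175 to 3648 CPM against 1522 to 2377 CPM, and plasmacytoid dendritic cell markers, 3 of 4 tested higher and 1 (Tcf4) lower, to 634 to 1005 CPM against 519 to 1011 CPM. All 4 neutrophil markers also passed as higher, with sums of 193 to 739 CPM against 40.3 to 243 CPM. Of 4 gamma-delta T and NKT cell markers, 2 passed as higher and 1 as lower, with sums of 25.1 to 37.9 CPM against 9.33 to 28.5 CPM. No defining marker of these lists had a median count of 0 in AB1, and the part of each cell type in the receptor values was not tested.

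The lowest library of a group was largely the same from receptor to receptor in AB1, and the highest was less so. Of the 24 receptors that rose in AB1, 22 were lowest among responders in responder 12, and 19 were lowest among non-responders in non-responder 9. The highest AB1 responder was spread over 5 libraries, with at most 8 of the 24 receptors in 1 of them, and the highest non-responder was non-responder 11 for 13. Responder 12 and non-responder 9 were also lowest in their groups for the leukocyte gene Ptprc (445 and 156 CPM) and for Cd8a (14.0 and 2.14 CPM). Groups did not overlap for 4 of the 24 receptors (Klri1, Klrc3, Klrb1b and Klrb1c), compared with 2.0% of all genes tested whose responders all lay above the non-responders. Without responder 12, a comparison added after these values were seen, 22 of the 24 were free of overlap, against 6.89% of all genes. Both counts cover receptors already called higher in AB1, and the library left out was the lowest responder for 22 of them. The shares cover all genes tested, called or not, so no separation beyond the calls themselves is read from these counts.

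**Figure D1:**
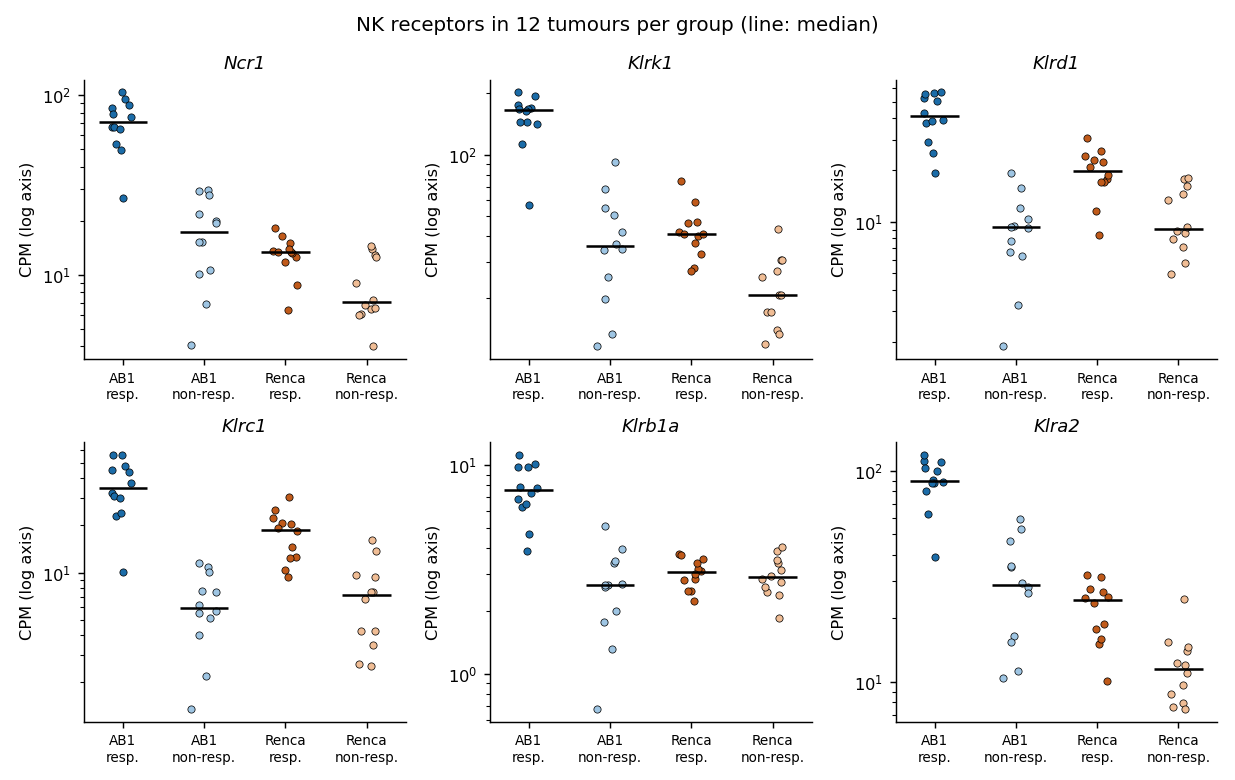
TMM-scaled CPM (log axis) of 6 receptor genes in each of the 48 tumours, 12 per group, with a line at the group median. In AB1, 11 of 12 responders lie above all non-responders for Ncr1, Klrk1, Klrd1, Klrc1 and Klra2, whereas Klrb1a in Renca has nearly the same range in both groups (2.24 to 3.73 and 1.85 to 4.04 CPM).

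The NKG2D ligands fell in AB1 responders while the receptor rose. H60b ran from 5.96 to 10.4 CPM in responders (median 7.63) and from 7.95 to 16.6 CPM in non-responders (median 11.6). Its log2 fold change was -0.46 ± 0.11 (edgeR adjusted p = 0.00106), and all 12 responders lay under the median of the non-responders. H60c ran from 1.46 to 2.70 CPM in responders and from 2.23 to 4.26 CPM in non-responders, with 10 of 12 responders below every non-responder and a log2 fold change of -0.57 ± 0.11 (edgeR adjusted p = 0.000105).

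Raet1e ran from 7.49 to 17.7 CPM in AB1 responders (median 10.5) and from 10.6 to 24.1 CPM in non-responders (median 17.4), a log2 fold change of -0.55 ± 0.15 (edgeR adjusted p = 0.00264). Raet1d, with 6.82 to 16.5 CPM against 9.04 to 21.3 CPM, fell by 0.49 ± 0.15 on the log2 scale (edgeR adjusted p = 0.00773). Counted together, the Raet1 genes fell by 0.52 ± 0.15 (adjusted p = 0.00419). Within the first flow cell alone (5 tumours per group) the changes were -0.40 for Raet1e (adjusted p = 0.253) and -0.30 for Raet1d (adjusted p = 0.422), so neither passed there. Within the second (7 tumours per group) both passed, at -0.67 (adjusted p = 0.00379) and -0.64 (adjusted p = 0.00392). Lower levels were common in AB1 responders, at 30.1% of all genes tested.

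**Figure D2:**
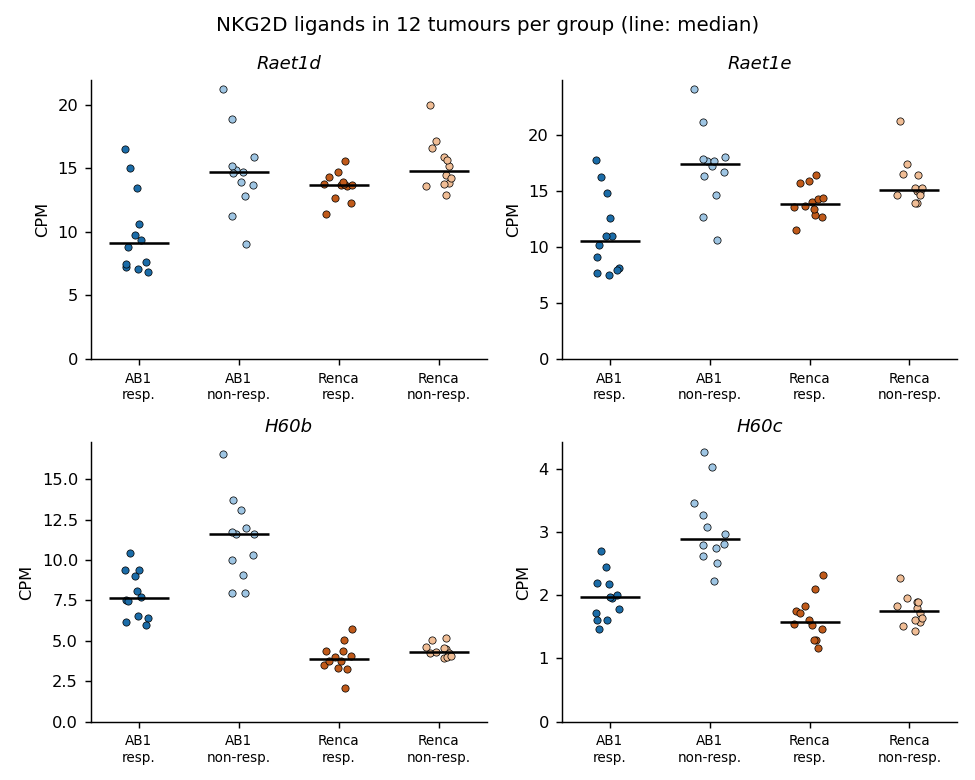
TMM-scaled CPM of the 4 NKG2D ligand genes in each tumour, 12 per group, on linear axes from 0, with a line at the group median. The AB1 responders sit lower than the AB1 non-responders for all 4 genes but overlap them, and the Renca groups lie closer together (for Raet1d, medians of 13.7 and 14.8 CPM).

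In Renca tumours the receptors were also higher in responders, but by less, and only 1 of the 4 NKR-P1 genes tested passed. Of 25 genes tested, 14 receptors were higher, Klrg2 was lower and 10 genes did not pass (edgeR quasi-likelihood test, Benjamini-Hochberg). Over all 15409 genes tested in Renca, 11.6% were higher and 8.01% were lower, 19.6% in all. Klra1, Klra4, Klra5 and Klra8, besides Klra6 and Klrb1, were too low to be tested. No receptor had groups without overlap, and none of all genes tested had every responder above every non-responder (0.0%).

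The NKG2 genes had the largest fitted rises in Renca. Klrc1 ran from 9.31 to 30.2 CPM in responders (median 18.7) and from 2.55 to 16.1 CPM in non-responders (median 7.16), and all 12 responders exceeded the median of the non-responders. Its log2 fold change was 1.29 ± 0.27 (edgeR adjusted p = 0.00366). Klrc2 and Klrc3 rose by 1.35 ± 0.28 and 1.11 ± 0.26.

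Klrk1 ran from 27.1 to 74.4 CPM in Renca responders (median 41.1) and from 12.0 to 43.3 CPM in non-responders (median 20.7), a log2 fold change of 0.92 ± 0.19 (edgeR adjusted p = 0.00366). Klrd1 ran from 8.42 to 30.8 CPM in responders (median 19.7) and from 4.98 to 18.1 CPM in non-responders (median 9.04), and rose by 0.84 ± 0.21. Klre1, Klri2, Klri1 and Klrg1 rose by 0.89 ± 0.25, 0.74 ± 0.19, 0.71 ± 0.14 and 0.68 ± 0.19.

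Ncr1, the NK cell marker, ran from 6.36 to 18.3 CPM in responders (median 13.4) and from 3.99 to 14.4 CPM in non-responders (median 7.04) of Renca, and only 3 responders exceeded every non-responder. The log2 fold change was 0.57 ± 0.19 (edgeR adjusted p = 0.0398). The call was lost in 15 of the 24 leave-one-out fits, with adjusted p up to 0.0705.

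Of the NKR-P1 genes only Klrb1c rose in Renca, by 0.54 ± 0.17 (edgeR adjusted p = 0.0255), and it missed the threshold without responder 6 or responder 8 (adjusted p up to 0.0509). Klrb1b had 8.54 to 15.3 CPM in responders and 6.44 to 13.7 CPM in non-responders, a log2 fold change of 0.34 ± 0.13 (adjusted p = 0.0601). Klrb1f changed by 0.14 ± 0.12 (adjusted p = 0.444) and Klrb1a by 0.04 ± 0.11 (adjusted p = 0.841). Summed over the family, the Klrb1 genes rose by 0.30 ± 0.10 (adjusted p = 0.0415).

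Of 6 Ly49 genes tested in Renca, Klra2, Klra17 and Klra3 rose, by 0.88 ± 0.19, 0.84 ± 0.20 and 0.74 ± 0.20. Klra2 ran from 10.1 to 32.1 CPM in responders (median 24.3) and from 7.44 to 24.6 CPM in non-responders (median 11.5). Klra7 (0.67 ± 0.25, adjusted p = 0.0614), Klra9 (0.51 ± 0.22, adjusted p = 0.11) and Klra10 (0.52 ± 0.31, adjusted p = 0.244) missed the threshold in the edgeR test. Same-numbered tumours of both response groups shared a sequencing lane, and with that pairing as a block Klra7 passed, with a log2 fold change of 0.77 (adjusted p = 0.0361).

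Klrg2 fell in Renca, from 6.45 to 9.78 CPM in non-responders to 5.05 to 8.17 CPM in responders, by 0.23 ± 0.07 on the log2 scale (edgeR adjusted p = 0.0278). It no longer passed with the pairing as a block (-0.23, adjusted p = 0.0568), nor without non-responder 1, non-responder 4, responder 6 or responder 8. The ligands did not pass in Renca in the edgeR test: Raet1d changed by -0.16 ± 0.06 (adjusted p = 0.0746), Raet1e by -0.16 ± 0.07 (adjusted p = 0.0859), H60b by -0.17 ± 0.10 (adjusted p = 0.253) and H60c by -0.11 ± 0.10 (adjusted p = 0.462). Some Renca genes that missed the threshold passed without 1 library: Klra7 (without non-responder 3 or responder 2), Klra9 (non-responder 3), Klrb1b (non-responder 3, responder 3 or responder 9), Raet1d (non-responder 3 or 5) and Raet1e (non-responder 2 or responder 11). Their lowest adjusted p were 0.000198, 0.0385, 0.0107, 0.0374 and 0.0464.

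By its medians, RNA purity differed with response in both tumours, in opposite directions, and this difference was not tested. The 260/230 absorbance ratio had a median of 2.01 in Renca responders and 2.16 in non-responders, whereas in AB1 it was 2.21 in responders and 2.07 in non-responders. With both purity ratios as covariates 1 of the 25 genes, Klrk1 (0.78 ± 0.20, edgeR adjusted p = 0.04999), passed in Renca, and Klrc1 had a log2 fold change of 1.10 ± 0.30 (adjusted p = 0.056). Over all genes the same covariates took the calls in Renca from 3027 to 224. In AB1 they took the calls over all genes from 9194 to 8427, and 28 of the 29 members still passed. On the first flow cell of Renca alone (6 tumours per group) no member passed in edgeR, 11 had an unadjusted p under 0.05, 9 of them higher in responders, and 0.0% of the 15590 genes tested passed. On the second flow cell alone, also with 6 tumours per group, 11 of the 25 members passed, all of them higher in responders, beside 8.19% of 15299 genes.

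In Renca, where 11.6% of all genes tested were higher, T cell markers passed as higher for 6 of 7 genes. Their sums were 92.2 to 221 CPM in responders and 37.1 to 136 CPM in non-responders, and Cd8a rose by 1.18 ± 0.24. All 7 pan-leukocyte markers (Ptpn6, also listed with the adaptors, among them) passed as higher, with sums of 1275 to 2074 CPM and 933 to 1595 CPM. The renal tubule markers went the other way, with 3 of 3 tested lower and sums of 188 to 324 CPM in responders and 283 to 430 CPM in non-responders. None of 4 gamma-delta T and NKT cell markers passed in either direction. They summed to 30.9 to 49.1 CPM in responders and 32.6 to 64.8 CPM in non-responders. Renca responder 2 was the lowest responder for 15 of the 24 receptors that rose in AB1, and responder 8 the highest for 14. Non-responder 3 was the highest non-responder for 14, and also had the highest non-responder value of Cd8a (37.1 CPM) and Ptprc (395 CPM). The part of these cell types in the receptor values was not tested.

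**Figure D3:**
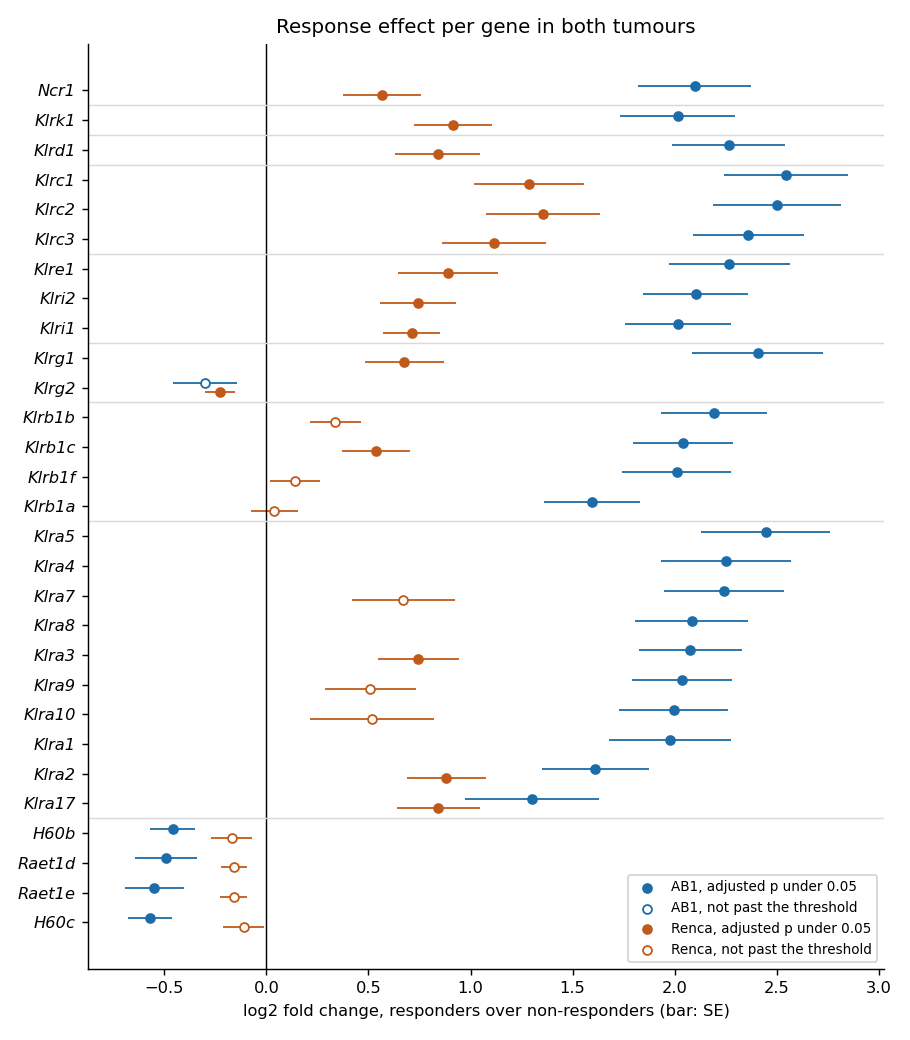
Log2 fold change of responders over non-responders for the 29 genes tested in AB1 (blue) and the 25 tested in Renca (orange), grouped by role, with bars for the SE and filled points for an adjusted p under 0.05. Apart from Klrg2 (-0.30 in AB1 and -0.23 in Renca), the receptors lie between 1.30 and 2.54 in AB1 and between 0.04 and 1.35 in Renca. The 4 ligands lie left of 0 in both tumours.

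The difference of the response effect between the tumours was tested itself, as the interaction term of an edgeR fit over all 48 libraries. The effect was larger in AB1 for 22 of the 29 genes tested and more negative in AB1 for 2. Over all 16509 genes the shares were 18.5% and 26.6%, 45.1% in all. Klra1, Klra4, Klra5 and Klra8, among the 22, were too low to be tested in Renca alone and passed the filter through AB1. The filter thus favoured a larger effect in AB1 for them, and they are not read as support. The largest differences among the members were in NKR-P1 genes: 1.82 ± 0.29 for Klrb1f (adjusted p = 4.23e-06) and 1.81 ± 0.29 for Klrb1b (adjusted p = 3.54e-06), followed by Klrg1 at 1.68 ± 0.38. Among the smallest that passed were Klrk1 at 1.05 ± 0.34 (adjusted p = 0.0101) and Klrc2 at 1.10 ± 0.42 (adjusted p = 0.0298). With the lane pairing as a block Klrc2 missed the threshold (0.98, adjusted p = 0.0748).

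For the 2 Ly49 genes known from myeloid cells the response effect did not differ detectably between tumours in the main fit. Klra17 had a difference of 0.41 ± 0.40 (adjusted p = 0.417) and Klra2 of 0.68 ± 0.33 (adjusted p = 0.0847). With the pairing as a block Klra2 passed (0.78, adjusted p = 0.0336), and so did Raet1d (-0.43, adjusted p = 0.0398), which missed it otherwise (-0.39 ± 0.17, adjusted p = 0.0533). Of the ligands, H60c (-0.52 ± 0.15, adjusted p = 0.00465) and Raet1e (-0.45 ± 0.17, adjusted p = 0.0255) fell more in AB1 than in Renca, and H60b did not pass (-0.35 ± 0.16, adjusted p = 0.0654). Calls were lost without single Renca libraries for Klra4 (non-responder 3, 7, 9 or 11), Klrc2 (non-responder 3 or 11), Raet1e (non-responder 6 or responder 2) and Klra1 (non-responder 3). Calls were gained for Klra2 without AB1 non-responder 6, non-responder 7 or responder 12, and in 7 of 48 leave-one-out fits for H60b and 9 for Raet1d.

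Ratios between genes of the same library show whether a receptor moved in step with a marker or apart from it. In all, 20 such ratios were tested, 10 in each tumour, by a two-sided permutation test with 100000 resamples on log2 ratios, adjusted by Benjamini-Hochberg over the 20. Of these 7 passed, 3 in AB1 and 4 in Renca, with that of Klra4 in AB1 depending on the amount added to low levels. The exact permutation p given within flow cells are unadjusted.

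Relative to Ptprc (CD45, on all leukocytes), Ncr1 was higher in AB1 responders, at -3.68 ± 0.22 (SD, n = 12) against -4.27 ± 0.42 in non-responders. The difference was 0.59 ± 0.14 (SE, permutation adjusted p = 0.0018), and all 12 responders lay above the median of the non-responders. It was 0.80 within the first flow cell (exact permutation p = 0.00794) and 0.44 within the second (exact permutation p = 0.0291). In Renca the same ratio differed by 0.20 ± 0.15 (permutation adjusted p = 0.285).

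Relative to Cd8a, Ncr1 was lower in Renca responders, at -1.75 ± 0.53 against -1.13 ± 0.47, a difference of -0.62 ± 0.20 (permutation adjusted p = 0.0181). The differences within the flow cells were -0.66 (exact permutation p = 0.0584) and -0.59 (exact permutation p = 0.0866). In AB1 this ratio differed by -0.33 ± 0.18 (permutation adjusted p = 0.164), with 0.07 within the first flow cell and -0.61 within the second. Klrk1 rose relative to Ncr1 in Renca, by 0.35 ± 0.12 (permutation adjusted p = 0.0266), and this call was lost in 6 of the 24 leave-one-out repeats (adjusted p up to 0.0571). In AB1 Klrk1 relative to Ncr1 had a difference of -0.04 ± 0.12 (permutation adjusted p = 0.762).

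The NKG2A gene Klrc1 rose relative to its partner Klrd1 in Renca, from -0.68 ± 0.38 in non-responders to -0.15 ± 0.21 in responders, a difference of 0.53 ± 0.12 (permutation adjusted p = 0.00227). All 12 responders lay above the median of the non-responders. The differences were 0.54 within the first flow cell (exact permutation p = 0.0303) and 0.52 within the second (exact permutation p = 0.00649). Neither passed after adjustment (permutation adjusted p = 0.202 and 0.0649). In AB1 the difference was 0.22 ± 0.10 (permutation adjusted p = 0.0876). This AB1 difference passed with the lane pairs (adjusted p = 0.0254) and without responder 12 (0.28, adjusted p = 0.0149). Klrd1 relative to Ncr1 in Renca (0.26 ± 0.11, permutation adjusted p = 0.0803) likewise passed only with the lane pairs (adjusted p = 0.0391) or without responder 3 or responder 9.

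Klrk1 rose more than Hcst, its DAP10 adaptor gene, in both tumours. The difference was 0.80 ± 0.24 in AB1 (permutation adjusted p = 0.0138) and 0.39 ± 0.10 in Renca (permutation adjusted p = 0.0018), with 11 of 12 responders above the median of the non-responders in each. Within the flow cells it was 1.004 and 0.66 in AB1 and 0.20 and 0.57 in Renca, with exact permutation p of 0.00794, 0.101, 0.0606 and 0.00216. Klra4 relative to Ncr1 had a difference of -0.64 ± 0.21 in AB1 (permutation adjusted p = 0.0179), but its fitted rise (2.25 ± 0.32) was not smaller than that of Ncr1 (2.10 ± 0.28). Its medians there were 1.17 CPM in responders and 0.245 CPM in non-responders, close to the 0.25 CPM added before taking the ratio, and with 1 CPM added the difference was -1.31. The value of this ratio therefore depends on the amount added, and no change of Klra4 relative to Ncr1 is read from it. Klrg1 and Klrb1c relative to Ncr1 and Klre1 relative to Klrk1 did not pass in either tumour.

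**Figure D4:**
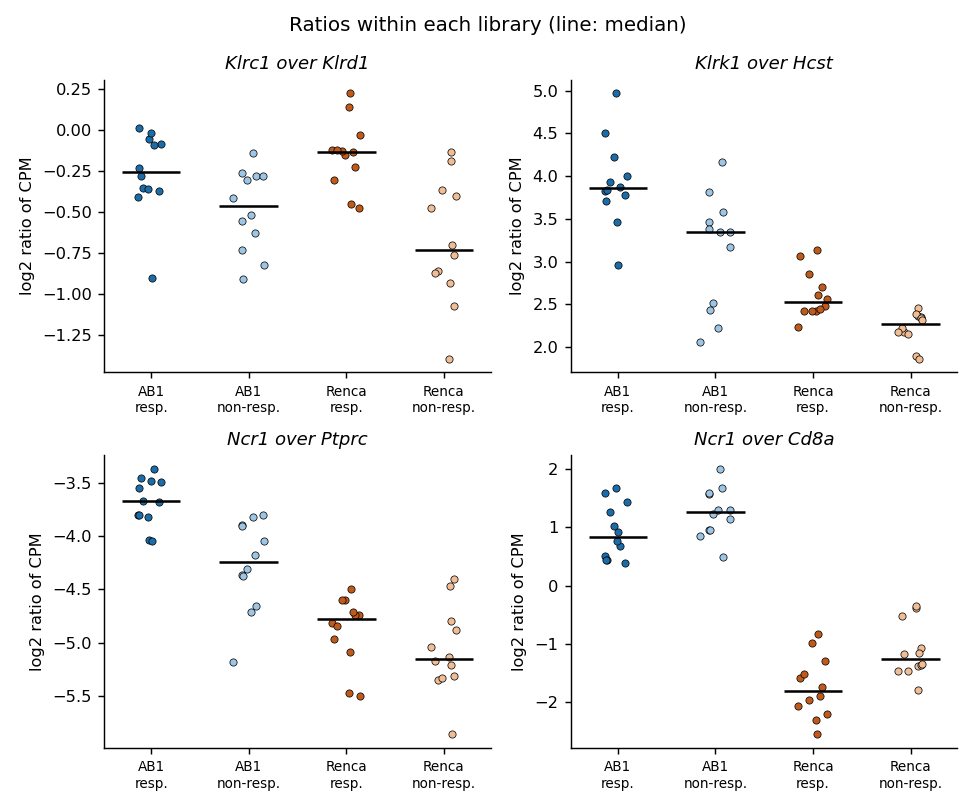
Log2 ratio of CPM between 2 genes of the same library for each tumour, 12 per group, with a line at the group median. Klrk1 over Hcst lies higher in responders of both tumours, and Klrc1 over Klrd1 lies higher in responders of Renca. Ncr1 over Ptprc lies higher in responders of AB1, and Ncr1 over Cd8a lies lower in responders of Renca.

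Genes that carry the receptors' signals rose with them. Of 13 partners and adaptors, 12 were higher in AB1 and 10 in Renca, beside 29.6% and 11.6% of all genes tested. Their median log2 fold change was 1.28 in AB1 and 0.40 in Renca, beside -0.02 and -0.01 over all genes tested. Hcst rose by 1.45 ± 0.19 in AB1 and 0.57 ± 0.15 in Renca, and Tyrobp, the DAP12 gene, by 1.10 ± 0.12 and 0.40 ± 0.08. Ptpn6, the SHP-1 phosphatase of inhibitory receptors, rose by 1.48 ± 0.16 in AB1, and Syk, a kinase downstream of DAP12, by 1.11 ± 0.12 in AB1 and 0.44 ± 0.08 in Renca. Tyrobp, Syk and Ptpn6 are also expressed by myeloid cells.

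Ligands of the other lectin receptors mostly rose as well, in contrast to the NKG2D ligands. In AB1 8 of 11 tested were higher and 1, Cdh2, was lower (-0.83 ± 0.12), and in Renca 7 of 9 were higher and 1, Cdh1, was lower (-0.45 ± 0.11). Over all genes tested, 29.6% were higher and 30.1% lower in AB1, and 11.6% and 8.01% in Renca. H2-T23, which encodes the Qa-1 heavy chain read by CD94 with NKG2A, ran from 435 to 977 CPM in AB1 responders and from 180 to 853 CPM in non-responders, and rose by 1.24 ± 0.22 in AB1 and 0.44 ± 0.11 in Renca. Clec2d, the ligand of Klrb1b, rose by 0.70 ± 0.13 and 0.30 ± 0.07. Cdh1, the E-cadherin read by KLRG1, had medians of 15.5 CPM in responders and 11.7 CPM in non-responders of AB1 (edgeR adjusted p = 0.279), and of 80.2 and 116 CPM in Renca.

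Of all genes tested, 29.6% were higher in AB1 and 11.6% in Renca. Of 10 NK cell markers tested, Ncr1 among them, 10 were higher in AB1 and 8 in Renca. Their sums, over the 11 of 16 markers analysed, ran from 258 to 637 CPM in AB1 responders and from 115 to 288 CPM in non-responders, and from 121 to 249 CPM and 84.6 to 172 CPM in Renca. Eomes, a T-box factor of mature NK cells, rose by 2.24 ± 0.25 in AB1, and Nkg7, a granule protein of cytotoxic cells, by 1.12 ± 0.22 in Renca.

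Compared per kilobase of exon, the receptors had different orders in the groups. In AB1 responders the highest median levels were those of Klra2 (47.0 CPM per kb), Ncr1 (46.2), Klrd1 (32.0) and Klrk1 (22.96). In Renca responders they were Klrd1 (15.4 CPM per kb), Klra2 (12.8), Raet1d (9.53) and Klrc1 (9.43), with Ncr1 at 8.70. The ranges of neighbouring genes in these orders overlapped, so the order of neighbours is not settled by the data.

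Between the tumours, with response as a term, 25 of 29 genes tested were higher in AB1 and 2 were lower. Over all 16509 genes the shares were 42.1% and 39.2%, 81.3% in all. Klra1, Klra4, Klra5 and Klra8, among the 25, were too low to be tested in Renca alone and passed the filter through AB1. Their direction was thus favoured by the filter and is not read as support. Tumour line, day of removal and flow cell cannot be told apart in this comparison. Ncr1 was 1.74 ± 0.20 higher in AB1 on the log2 scale, and Klrk1 1.34 ± 0.19, while Klrd1 differed by 0.44 ± 0.20 (edgeR adjusted p = 0.0441, lost in 24 of 48 leave-one-out fits) and Klrc2 by 0.50 ± 0.22 (adjusted p = 0.0367, lost in 9). Klrc1 did not pass (0.45 ± 0.22, adjusted p = 0.0584), though it did in 13 leave-one-out fits. Klrg2 was lower in AB1 by 2.17 ± 0.09 and no library of either tumour crossed into the range of the other, 0.925 to 3.20 CPM in AB1 against 5.05 to 9.78 CPM in Renca.

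H60b and H60c were higher in AB1 by 1.18 ± 0.08 and 0.54 ± 0.08, Raet1d was lower by 0.25 ± 0.09 (edgeR adjusted p = 0.00875), and Raet1e did not pass (-0.11 ± 0.09, adjusted p = 0.261). Among non-responders alone 12 of 25 genes passed, beside 76.4% of all genes tested there. The sign turned, without a call, for 7 genes: Klrd1 (-0.25), Klrb1b (-0.19), Klrc1 (-0.17), Klrb1a (-0.16), Klrc2 (-0.064) and Klrb1f (-0.036) were lower in AB1, and Raet1e (0.094) was higher. Among responders alone 29 of 29 passed, 26 of them higher in AB1, beside 77.1% of all genes. Klra1, Klra4, Klra5 and Klra8 are among the 29 and again passed the filter through AB1.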

How the data were processed

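The authors deposited 1 table of unnormalized whole-number counts, with genes in rows and the 48 libraries in columns. StringTie 1.3.0, HISAT2 2.0.4 and bcl2fastq 2.18.0.12 are named in the submitters' processing notes, with human builds (hg19, GRCh37) beside mouse identifiers. What counted the reads, on which mouse build and annotation and with which strand setting, is not given in the sources used here. Coordinates and exon lengths come from GENCODE M21 (GRCm38), to which all 31 members matched, and may not be the authors'. That counting may have split or dropped reads of genes with close copies. The members and gene lists were chosen with earlier results of these data known.

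Counts were fitted with edgeR 4.0.16 in R 4.3.3 (TMM scaling, filterByExpr, quasi-likelihood F test, Benjamini-Hochberg adjustment over all genes tested, threshold 0.05). Response was tested within each tumour with flow cell as a term, the difference of effects over all libraries with 4 flow cell levels, and AB1 against Renca with response as a term. SEs were derived from the F statistic (absolute log2 fold change over the root of F). CPM values use TMM-scaled library sizes, and ratios add 0.25 CPM to each gene. Every member is accounted for, and from each other list at most the 3 genes of smallest p per comparison are named besides Hcst, Tyrobp, H2-T23, Cdh1, Clec2d, Cd8a and Ptprc; Tcf4, the only lower gene of its list, was named after its value was seen. The fits were tested on simulated data. In all 12 pairs of each tumour, the responder and the non-responder of one number had the same sequencing lane, per the labels. Their deviations from the group means correlated by -0.09 to 0.53 in AB1 and by -0.13 to 0.30 in Renca. Where the labels name no separate animals, p-values measure only the spread between these samples. Alternatives were DESeq2 1.42.0, RLE size factors, no filter, no flow cell term, the pairing as a block, RNA purity ratios as covariates, single flow cells, a fit of all libraries, families summed, responders or non-responders alone, another pseudocount and leaving out each library in turn.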

Additional observations from a re-analysis of the deposited data

Results flagged for a closer look

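For 24 genes the response effect itself differed between AB1 and Renca, by the interaction test over all 48 libraries (edgeR, Benjamini-Hochberg). By the same rule it differed for 45.1% of all 16509 genes tested. All values for the 24 genes below are AB1 minus Renca on the log2 scale. Among the NK-cell and CD94 receptors these were Ncr1 (1.48), Klrk1 (1.05), Klrd1 (1.38), Klrc1 (1.21), Klrc2 (1.10), Klrc3 (1.20), Klre1 (1.33), Klri1 (1.25), Klri2 (1.31) and Klrg1 (1.68). Among the NKR-P1 receptors they were Klrb1a (1.50), Klrb1b (1.81), Klrb1c (1.46) and Klrb1f (1.82). Among the Ly49 receptors they were Klra1 (1.21), Klra3 (1.28), Klra4 (1.35), Klra5 (1.50), Klra7 (1.52), Klra8 (1.62), Klra9 (1.48) and Klra10 (1.43). Klra1, Klra4, Klra5 and Klra8 were too low to be tested in Renca alone and passed the filter through AB1. Of the ligands they were H60c (-0.52) and Raet1e (-0.45). As given above, the calls of Klra1, Klra4, Klrc2 and Raet1e depended on single Renca libraries, and that of Klrc2 also on the lane pairing. The tumours differ in line, day of removal and flow cells, and these cannot be told apart.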

How the results depend on the processing

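The number of members called stayed within 1.5 times the main count under every alternative run for AB1 and for the difference of effects. Renca was less stable. Its 15 calls became 1 with RNA purity as covariates, 0 on the first flow cell alone and 8 in a fit of all libraries, and 27 when each member took the value of its summed family. On the second flow cell, with as many samples, 11 passed. The cause of these changes was not tested. AB1 against Renca went from 27 calls to 12 among non-responders alone, where Klrb1f (-0.036), Klrd1 (-0.25), Klrb1a (-0.16), Klrc2 (-0.064) and Klrb1b (-0.19) turned sign from a call, and Klrc1 and Raet1e, which were not called, did so too. Of the 7 ratios called, 0 passed on the first flow cells alone and 1 on the second, and on each 3 of the 7 had an unadjusted exact permutation p under 0.05. With 1 CPM added in place of 0.25, the Klra4 to Ncr1 ratio in AB1 moved to -1.31.

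Leaving out 1 library at a time gave 28 to 29 calls in AB1, 12 to 19 in Renca, 21 to 27 for the difference of effects, 25 to 28 for AB1 against Renca and 6 to 8 ratios. With the lane pairing as a replicate block the counts were 28 in AB1, 15 in Renca, 25 for the difference and 9 ratios, and no call changed apart from those of Klra7, Klrg2, Klrc2, Klra2, Raet1d and the ratios of Klrc1 to Klrd1 in AB1 and Klrd1 to Ncr1 in Renca. Without AB1 non-responders 3 and 7, the libraries with skin markers, 28 members were called in AB1 and 27 for the difference. Precision is limited by low counts for Klra1, Klra4, Klra5, Klra6, Klra8 and Klrb1, and by shared sequence for the Raet1, Klrc and several Klra genes.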
